A study of Mus musculus with 8 samples.

Results

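The genes described here encode proteins of the photoreceptor ribbon synapse, and they were followed in retinas of aged mice. The 10 genes were Bsn, Pclo, Ctbp2, Cacna1f, Cabp4, Rims2, Slc17a7, Unc13b, Cplx3 and Cplx4, chosen by name for what their proteins do, with no measured value in the rule. Their probes were found through the transcript accession that the array files give for each spot, matched to the RefSeq gene table of GRCm38.p6. This gave 16 probes of 56605 on the array, and the 10 genes were among 22911 genes with a named probe. Of the 16 probes, 15 were retained after the filter on dim spots, and every gene kept at least 1. The samples were whole retinas from mice of 46 to 55 weeks, 4 labelled as homozygous Mrp4 knockout and 4 as wild-type, each hybridized to 1 one-color Agilent array. MRP4, encoded by Abcc4, is an efflux transporter of the ABC family, and the study asked what its absence does to the aged retina. The knockout line was kept on a C57BL/6J background, and the background of the wild-type mice is not given in the sources used here. The methods speak of tissue from 3 mice without saying if a sample is a pool, and nothing ties each array to its own animal, so p-values measure only the spread between these samples, which may be technical.

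The ribbon synapse is the output terminal of rods and cones, and bipolar cells use a smaller version of it. A plate of protein, the ribbon, stands at the release site and tethers a large pool of vesicles close to calcium channels, so that glutamate can be released without pause in darkness and less so in light. RIBEYE, made from the Ctbp2 gene, builds the ribbon itself, while Bassoon (Bsn) and Piccolo (Pclo) are giant scaffolds of the active zone, and Bassoon anchors the ribbon. Calcium enters through Cav1.4, whose pore is encoded by Cacna1f and which is tuned by the calcium-binding protein CaBP4 (Cabp4). RIM2 (Rims2) and Munc13-2 (Unc13b) act in docking and priming of vesicles, complexins 3 and 4 (Cplx3, Cplx4) bind the fusion machinery, and VGLUT1 (Slc17a7) loads vesicles with glutamate. Loss of Bassoon, Cav1.4 or CaBP4 is known to disturb transmission from photoreceptors to bipolar cells.

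Ctbp2 is known for making 2 proteins from different starts, RIBEYE at ribbons and the transcriptional corepressor CtBP2 in most cells. The RefSeq promoter table of GRCm38.p6 holds 2 windows for the gene, each from 250 bases before to 50 bases after a start, and they are shown because the only Ctbp2 probe of the array cannot be assigned to one protein or the other. The sequences run 5′ to 3′ on the minus strand of chromosome 7. Capitals mark TAATCC, read on either strand, the core that the photoreceptor transcription factor CRX is known to bind.
Ctbp2, chr7:133015198-133015497: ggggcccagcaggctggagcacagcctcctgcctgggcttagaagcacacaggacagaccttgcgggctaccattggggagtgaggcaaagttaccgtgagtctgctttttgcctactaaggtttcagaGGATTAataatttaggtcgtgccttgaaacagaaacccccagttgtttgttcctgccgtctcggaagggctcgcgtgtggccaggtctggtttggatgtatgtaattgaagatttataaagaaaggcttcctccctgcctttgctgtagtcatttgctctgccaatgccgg
Ctbp2, chr7:133081811-133082110: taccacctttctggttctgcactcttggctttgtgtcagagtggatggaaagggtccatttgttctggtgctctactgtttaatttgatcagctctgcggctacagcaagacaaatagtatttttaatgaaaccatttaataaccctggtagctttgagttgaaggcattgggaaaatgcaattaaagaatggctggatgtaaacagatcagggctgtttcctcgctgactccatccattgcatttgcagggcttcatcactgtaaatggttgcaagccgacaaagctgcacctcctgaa
The first window, which lies nearer to the end of the gene, held the motif once, on its opposite strand and beginning 121 bases before the start. The second window did not hold these letters. Among the 8 windows found for 7 of the genes this was the only one with the motif, and 7.1% of the 32851 windows in the table held it. A match is a description of the letters and not a measured binding site.

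A single slide (1 in all) carried the 8 arrays, one row of it per genotype, and so slide row and genotype cannot be told apart. Between 66.0% and 69.9% of the probes of an array were well above background, and no spot was saturated. The 75th percentile of the processed signal was 497 on array 2 of the Mrp4-null label and 514 on array 3 of wild-type, the lowest 2 of the 8 and called the dimmest below. Array 4 of wild-type followed at 566, with the lowest share of probes well above background (66.0%), and the remaining arrays were between 700 and 786. Abcc4 itself, the targeted gene, was higher under the knockout label, with a normalized log2 signal of 10.75 ± 0.09 (SD, n = 4) against 6.83 ± 0.29 (SD, n = 4) in wild-type (limma, adjusted p = 1.36e-05). Whether its probe lies inside the deleted part of the gene is not given in the sources used here. A higher signal is the opposite of a loss of this transcript, and the study also lists this probe among those upregulated in the knockout. Whether the labels match the genotypes was not tested, and all directions below follow the labels as deposited. All listed markers of rods (12 genes), cones (9) and bipolar cells (10) were well above background on all 8 arrays. RNA of the whole retina was measured, so fewer cells of a type and less RNA per cell cannot be told apart.

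None of the ribbon synapse genes was called changed between the genotypes. Limma called 0 of the 15 retained probes when a 1.5-fold change or more and a Benjamini-Hochberg adjusted p under 0.05 were required, and the smallest adjusted p was 0.921. Over all 37085 retained probes 0.545% were called. At an unadjusted p under 0.05 the count was again 0 of 15, against 6.46% of all retained probes, and the local pooled error (LPE) test of the study's methods called 0 of 15 against 0.647%. The fitted log2 differences, Mrp4-null label minus wild-type, ran from -0.19 for the dim probe of Bsn to 0.22 for a probe of Rims2. Values above 0 were fitted for 8 probes and below 0 for 7, while 53.2% of all retained probes were below 0, and the median was 0.011, beside -0.0093 over all retained probes. In all 15 probes the arrays of the genotypes overlapped, while over all retained probes 4.79% showed no overlap.

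**Figure D1:**
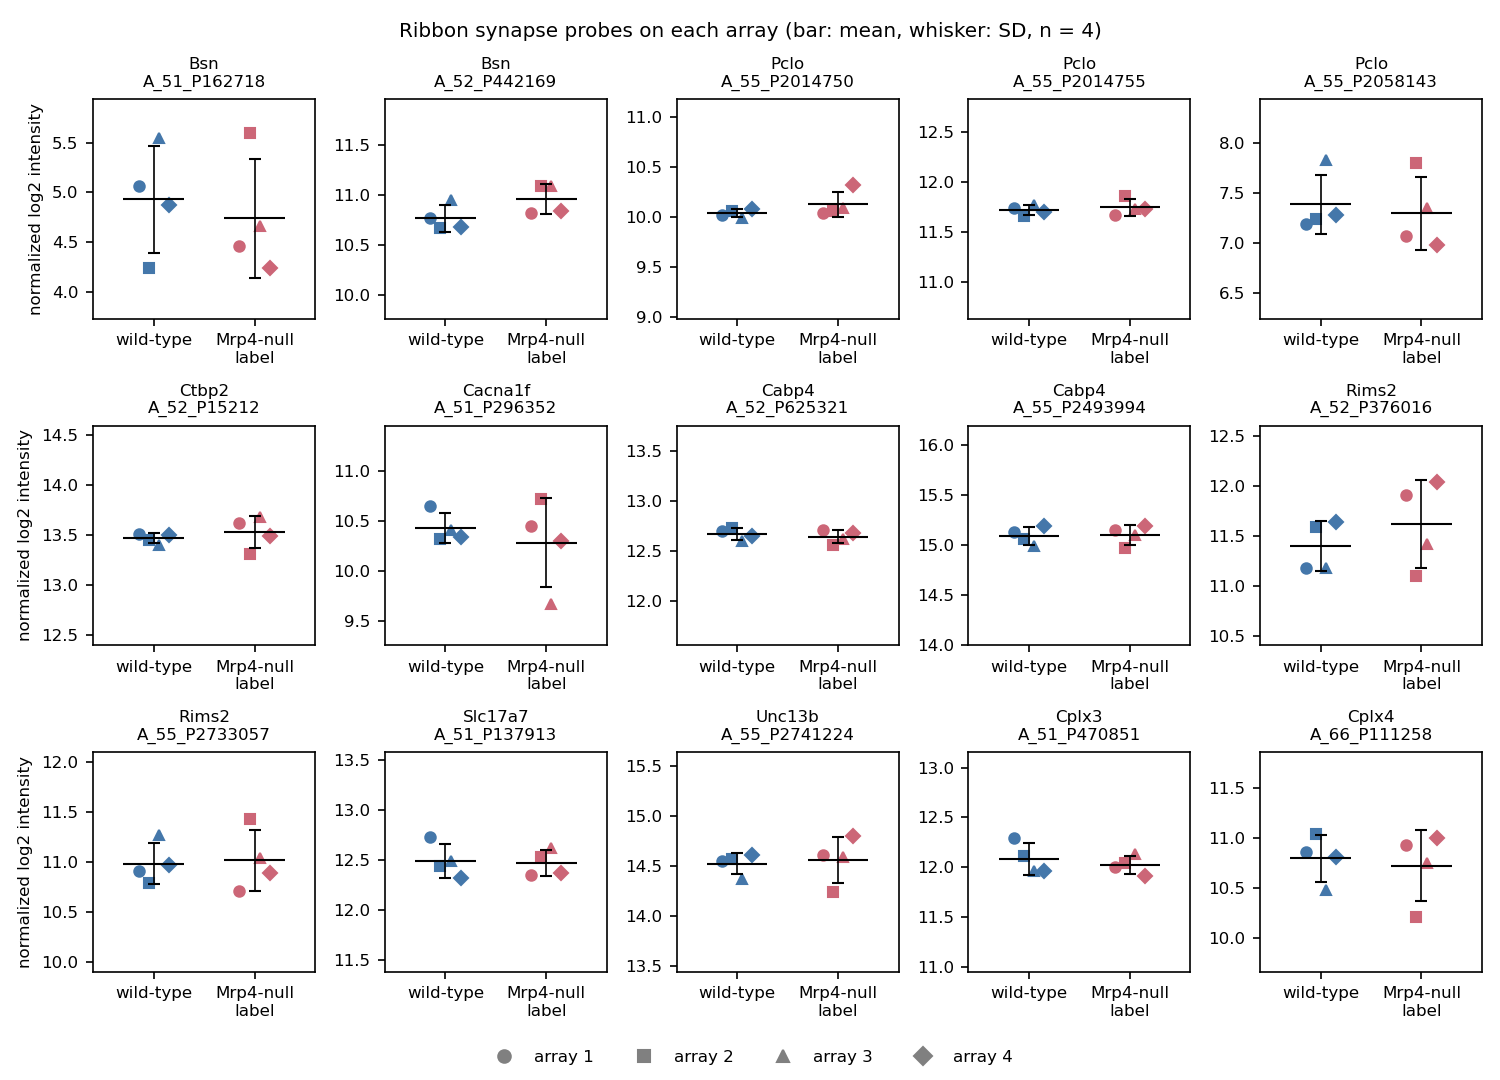
Normalized log2 intensity of each of the 15 retained ribbon synapse probes on the 4 wild-type arrays (blue) and the 4 arrays labelled Mrp4-null (red), with the array number given by the symbol, the mean as a bar and the SD as a whisker. Every panel spans the same range of log2 units around its own mean, and the arrays of the genotypes overlap in every panel.

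The intervals show how large a difference these arrays leave room for. For 12 of the 15 probes the 95% interval of the difference lay wholly within a 1.5-fold change in either direction, as it did for 77.2% of all retained probes. The 3 whose interval reached past that size were the dim Bsn probe, the Cacna1f probe and one of the Rims2 probes. At least 1 probe with an interval inside a 1.5-fold change was found for each gene other than Cacna1f.

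**Figure D2:**
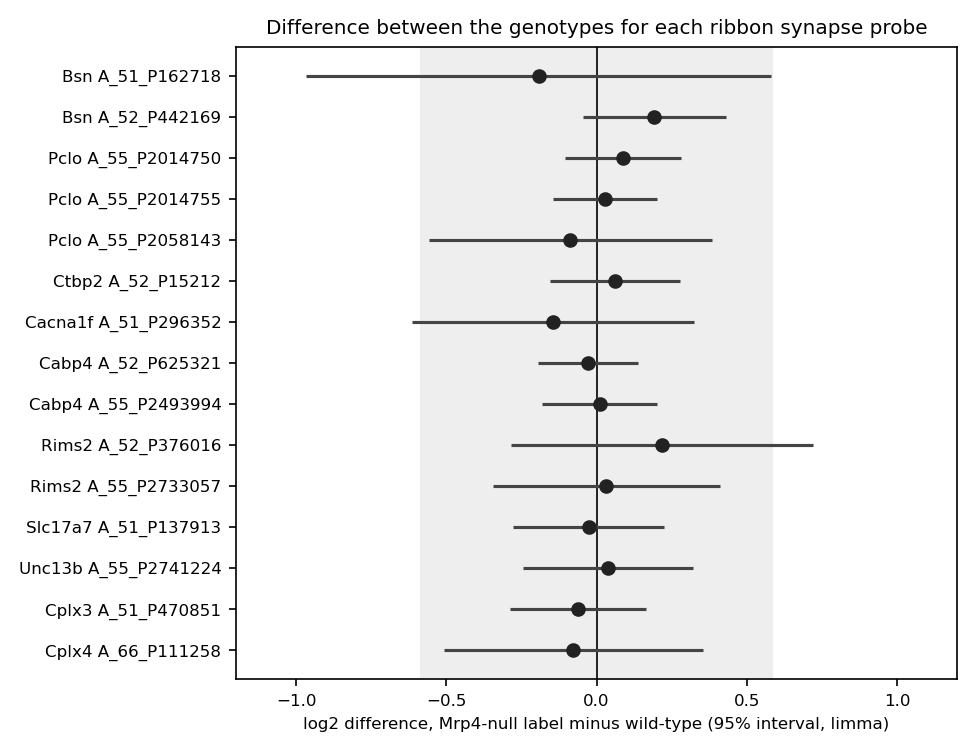
Fitted log2 difference between the genotypes (dot) and its 95% interval from limma (line) for each ribbon synapse probe, with the range of a 1.5-fold change shaded. All 15 intervals include 0, and those of Bsn A_51_P162718, Cacna1f and Rims2 A_52_P376016 extend outside the shaded range.

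The scaffolds of the active zone were measured by several probes each. Bsn was read by A_52_P442169, whose normalized log2 signal on arrays 1 to 4 was 10.82, 11.08, 11.09 and 10.84 under the Mrp4-null label, against 10.76, 10.67, 10.95 and 10.67 in wild-type. Only the third wild-type array rose above the lower arrays of the other label. The log2 difference was 0.19 (standard error 0.10, 95% interval -0.05 to 0.43, limma adjusted p = 0.921), and its unadjusted p of 0.0999 was the smallest among the 15 probes. Without wild-type array 3 the difference was 0.25 (limma unadjusted p = 0.043, adjusted p = 0.84), and 1 of the 15 probes then passed an unadjusted p under 0.05. The share of all retained probes passing in that fit was not computed, and with all arrays it was 6.46%. The other retained Bsn probe, A_51_P162718, was dim. Its processed signal was between 19.8 and 41.4 over the 8 arrays, and its difference was -0.19 (standard error 0.34, interval -0.97 to 0.58). A further Bsn probe, A_55_P2826909, was well above background on none of the 8 arrays and was not retained.

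Pclo was read by 3 probes, and none separated the genotypes. A_55_P2014755 was at 11.75 ± 0.08 (SD, n = 4) under the Mrp4-null label, beside 11.72 ± 0.05 (SD, n = 4) in wild-type, a log2 difference of 0.03 (95% interval -0.14 to 0.20). This corresponds to a fold between 0.905 and 1.15. A_55_P2014750 was at 10.04, 10.07, 10.09 and 10.32 against 10.03, 10.06, 9.99 and 10.08, and array 4 of the Mrp4-null label lay above the rest. Its difference was 0.09 (interval -0.11 to 0.28). The third probe, A_55_P2058143, had a difference of -0.09 (interval -0.56 to 0.38) with an SD of 0.37 under the Mrp4-null label, beside 0.30 in wild-type.

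Ctbp2, the gene of the ribbon's own protein, was read by A_52_P15212. It was at 13.62, 13.32, 13.68 and 13.50 under the Mrp4-null label, against 13.52, 13.45, 13.41 and 13.50 in wild-type. The Mrp4-null label held both the highest and the lowest array, and the wild-type arrays lay between them. The log2 difference was 0.06 (standard error 0.10, 95% interval -0.16 to 0.28, limma adjusted p = 1.00), a fold between 0.898 and 1.21. As the accession of this probe is one of several Ctbp2 transcripts, transcripts from the pair of starts printed above were not separated.

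For the calcium channel the arrays leave a wider interval than for its partner CaBP4. Cacna1f was at 10.45, 10.72, 9.67 and 10.31 under the Mrp4-null label, against 10.65, 10.32, 10.42 and 10.34 in wild-type. The third array labelled Mrp4-null was the lowest of all 8, and the other 3 spanned the wild-type range. The difference was -0.14 (standard error 0.21, interval -0.61 to 0.32, limma adjusted p = 1.00), and without that array it was 0.06. Without array 2 of the Mrp4-null label it was -0.29, and without the 2 dimmest arrays it was -0.295. On array 3 of the Mrp4-null label the mean of the cone marker list, 13.32, was also the lowest of the 8, with 13.48 to 13.55 on the others. The rod list was there at 16.31 within a range of 16.24 to 16.36. The part of these values in the Cacna1f level was not tested. Cabp4 probe A_52_P625321 had the smallest standard error of the 15, 0.07. It was at 12.64 ± 0.07 (SD, n = 4) under the Mrp4-null label against 12.67 ± 0.06 (SD, n = 4) in wild-type, a difference of -0.03 with an interval of -0.20 to 0.14, or 0.873 to 1.101 as a fold. The second Cabp4 probe, A_55_P2493994, gave 0.01 (interval -0.18 to 0.20).

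Among the genes for docking and priming, Rims2 had the largest difference of the 15 probes in the limma fit, and its 2 probes moved oppositely between arrays. A_52_P376016 was at 11.91, 11.10, 11.42 and 12.05 under the Mrp4-null label against 11.18, 11.59, 11.18 and 11.64 in wild-type. Arrays 1 and 4 labelled Mrp4-null were above all wild-type arrays and array 2 was below them. The difference was 0.22 (standard error 0.22, interval -0.28 to 0.72, limma adjusted p = 1.00). It ranged from 0.0769 without array 4 of the Mrp4-null label to 0.392 without array 2 of that label, and it was 0.123 without array 1. By the LPE test, which compares medians, the dim Bsn probe had the largest difference, -0.409, and this Rims2 probe was at 0.279. A_55_P2733057 was at 10.71, 11.43, 11.04 and 10.90 against 10.91, 10.79, 11.27 and 10.97, a difference of 0.03 (interval -0.35 to 0.41). On this probe the second array labelled Mrp4-null was the highest and the first was the lowest. On A_52_P376016 the second was instead the lowest, while the first was above all wild-type arrays but below array 4 of its label. Unc13b was at 14.56 ± 0.23 (SD, n = 4) under the Mrp4-null label against 14.52 ± 0.10 (SD, n = 4) in wild-type, a difference of 0.04 (interval -0.25 to 0.32).

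The complexins and the vesicular transporter were likewise not called. Cplx4, which is known from rods and cones, was at 10.93, 10.21, 10.75 and 10.995 under the Mrp4-null label, against 10.86, 11.04, 10.48 and 10.81 in wild-type. The low value on each side belonged to the dim array, and the other arrays lay between 10.75 and 11.04. The difference was -0.08 (standard error 0.19, interval -0.51 to 0.35, limma adjusted p = 1.00). Cplx3 was at 12.02 ± 0.09 (SD, n = 4) under the Mrp4-null label against 12.09 ± 0.16 (SD, n = 4) in wild-type, with a difference of -0.06 (interval -0.29 to 0.16). Slc17a7 was at 12.47 ± 0.13 (SD, n = 4) under the Mrp4-null label against 12.49 ± 0.17 (SD, n = 4) in wild-type, with a difference of -0.03 (interval -0.28 to 0.23).

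Most of the ribbon synapse probes followed one of 2 patterns between arrays once the mean of each genotype was subtracted. On both of the dimmest arrays, array 2 of the Mrp4-null label and array 3 of wild-type, 4 probes had the highest value of their genotype. These were Bsn A_51_P162718, Pclo A_55_P2014755 and A_55_P2058143, and Rims2 A_55_P2733057. A further 6 had the lowest value of their genotype on both arrays, namely Ctbp2, both Cabp4 probes, Rims2 A_52_P376016, Unc13b and Cplx4. Together this was 66.7% of the ribbon synapse probes, and 44% of the 37075 retained probes with a value on every array showed either pattern. The dimmest array lay above the mean of the other 3 arrays of its genotype by 1.14 on the log2 scale for the dim Bsn probe in the Mrp4-null set, while the wild-type value was 0.815. For Cplx4 the dimmest arrays were at -0.683 and -0.426 relative to the others, and for Unc13b at -0.424 and -0.202. The mean levels of 5 of the 8 marker lists were also the lowest of their genotype on both arrays. On array 2 of the Mrp4-null label and array 3 of wild-type respectively, the rod list was at 16.24 and 16.25, the bipolar list at 12.83 and 12.78, the ganglion cell list at 12.01 and 12.13, the Muller glia list at 12.81 and 12.93 and the lens list at 6.40 and 7.51. The part of signal strength or of these cell types in the patterns was not tested.

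Probes of the same gene did not always share a pattern. Pearson's r over the 8 arrays, after subtraction of the genotype means, was 0.80 for the pair of Bsn probes, 0.63 for the pair of Cabp4 probes and 0.81 for Pclo A_55_P2014755 with A_55_P2058143. It was -0.80 for the pair of Rims2 probes and -0.52 for Pclo A_55_P2014750 with A_55_P2058143. Between genes the values ran from -0.96, for the dim Bsn probe with Cplx4, to 0.93, for Pclo A_55_P2058143 with Rims2 A_55_P2733057. Over all 105 pairs of probes the median was -0.112, with 47 pairs above 0. All pairs share the same 8 arrays, the dimmest 2 included, so these values only describe the arrays. With those 2 arrays left out, 0 of the 15 probes were called, against 128 of all 37903 retained probes, and 12 of 15 intervals lay within a 1.5-fold change. With the array signal as a covariate in limma, 0 were called, against 234 of all 37085 retained probes, and 14 of 15 intervals lay within it. The share of all retained probes with such intervals was not computed for these 2 fits. With the covariate the interval of Bsn A_51_P162718 (-0.44 to 0.37) had moved inside. That of Cacna1f (-0.5849 to 0.37) ended at the limit itself, a log2 value of 0.585, and without the 2 arrays it was -0.82 to 0.23. The difference for Bsn A_52_P442169 with the covariate was 0.22 (limma unadjusted p = 0.0402, adjusted p = 0.516).

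The arrays labelled Mrp4-null were also more spread than the wild-type arrays in 13 of the 15 ribbon synapse probes, as they were in 66.4% of all retained probes. The median SD of the ribbon synapse probes was 0.162 for the Mrp4-null label, beside 0.153 for wild-type, and over all retained probes 0.194 and 0.163. With the dimmest array of each genotype left out the count was 10 of 15, against 50.7% of all retained probes. The median SDs of the ribbon synapse probes were then 0.149 for the Mrp4-null label and 0.0639 for wild-type, while over all retained probes they were 0.141 and 0.139. With array 2 of the Mrp4-null label alone left out the count was 6 of 15, against 41.2%, but this takes an outlying array from one genotype only and so lowers that side by construction.

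The rest of the release machinery was read from a list of 37 genes, which held other active zone proteins, the fusion proteins, vesicle proteins, calcium pumps, synaptic scaffolds and genes of vesicle retrieval. Of these, 36 had a retained probe, with 65 probes in all, and Rimbp2 had none. Limma called 0 of the 65 probes against 0.545% of all retained probes, 0 reached an unadjusted p under 0.05 against 6.46%, and the LPE test called 0 against 0.647%. The median difference of the representing probes was 0.022. The lowest were Rims1, a relative of Rims2, at -0.21 (standard error 0.15), Erc2, an active zone protein that binds RIMs and Bassoon, at -0.14 (standard error 0.09), and Syp, which encodes the vesicle protein synaptophysin, at -0.14 (standard error 0.13). The highest were Mpp4, a photoreceptor scaffold, at 0.12 (standard error 0.11), Atp6v0a1, a subunit of the proton pump of vesicles, at 0.11 (standard error 0.10), and Syt1, a calcium sensor of release, at 0.11 (standard error 0.12). The arrays of the genotypes overlapped for all 65 probes, and over all retained probes 4.79% showed no overlap.

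Paralogs of the ribbon synapse genes, many of them used at conventional synapses, were not called either. A retained probe was found for 18 of 19 genes, with Rims4 left out, and limma called 0 of their probes against 0.545% of all retained probes, while the LPE test called 0 against 0.647%. The median difference of the representing probes was 0.086. The lowest were the vesicular transporters Slc17a6, used by ganglion cells, at -0.21 (standard error 0.14), and Slc17a8 at -0.20 (standard error 0.10), together with Rims1, which is on both lists. The highest was Unc13d, a relative of Unc13b known from blood cells, at 7.93 ± 0.17 (SD, n = 4) against 7.69 ± 0.07 (SD, n = 4). Its difference was 0.24 (standard error 0.10, limma adjusted p = 0.744). It was the only one of the 30 paralog probes to pass an unadjusted p under 0.05 in limma, as 6.46% of all retained probes did, and the only one whose arrays did not overlap between the genotypes, where 2.44% of all retained probes were higher without overlap. Cplx2, a complexin of conventional synapses, followed at 0.18 (standard error 0.11) and Cacna1a, the pore of Cav2.1, at 0.16 (standard error 0.14).

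**Figure D3:**
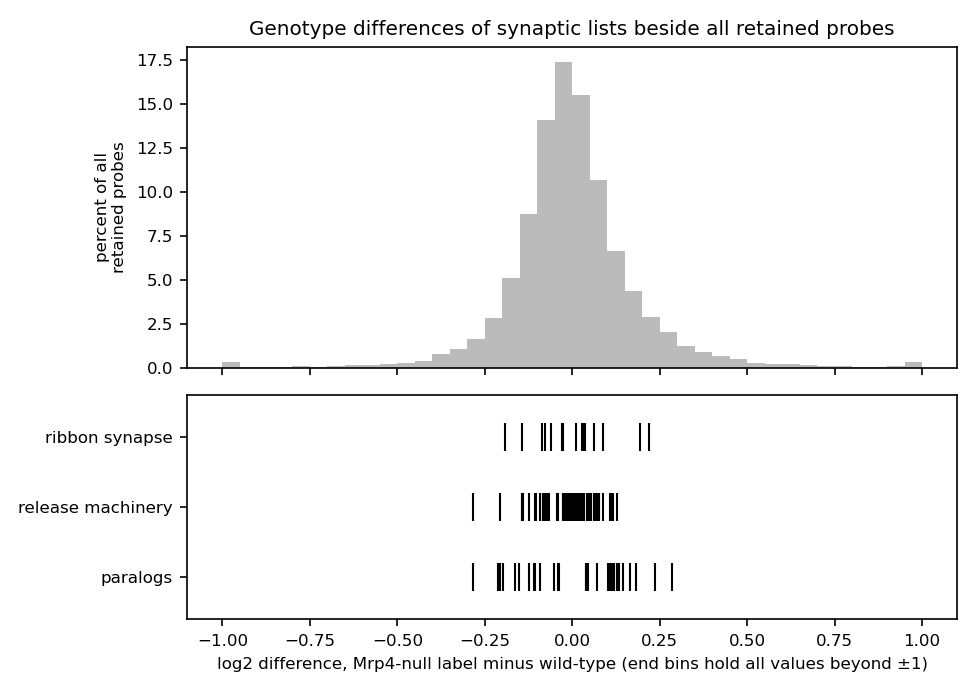
Log2 differences between the genotypes over all 37085 retained probes (grey bars, percent of probes per bin of the log2 difference) and for single probes of the ribbon synapse genes, the release machinery list and the paralog list (ticks). The ribbon synapse probes lie between -0.19 and 0.22, inside the range of -0.253 to 0.293 that holds all probes from the 5th to the 95th percentile.

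Markers of the cells that carry ribbons were read beside these genes. The mean normalized log2 signal of the rod list was 16.24 to 16.33 under the Mrp4-null label against 16.25 to 16.36 in wild-type, and that of the bipolar list was 12.83 to 13.04 and 12.78 to 13.01. Limma called 0 genes of these lists and of the cone list. At an unadjusted p under 0.05 it passed 1 of 16 rod probes, lower under the Mrp4-null label, and 2 of 17 cone probes and 4 of 22 bipolar probes, all higher. Over all retained probes 2.94% passed this limit as lower and 3.52% as higher. Both cone probes were of Arr3, cone arrestin, and the bipolar probes were 1 of Grm6, 2 of the 6 of Trpm1 and 1 of the 2 of Prkca, whose brighter probe was at 0.02. Differences were below 0 for 7 of the 16 rod probes, 11 of the 17 cone probes and 7 of the 22 bipolar probes. Over all retained probes 53.2% were below 0. The medians of the representing probes were 0.0019, -0.06 and -0.0050, and the medians over all probes of each list were 0.0079, -0.060 and 0.119. Arrays did not overlap between the genotypes for 2 rod probes, both lower under the Mrp4-null label. They did not overlap for 2 cone and 3 bipolar probes, all higher, against 4.79% of all retained probes. The LPE test called 0 genes of any of the 3 lists. Lens markers, most of them crystallins and lens membrane proteins, were spread widely between arrays. The lens list was at 6.40 to 8.57 under the Mrp4-null label, against 7.51 to 9.72 in wild-type, with a median difference of -1.38 over 15 of 18 genes. Of its 20 probes 19 were below 0, against 53.2% of all retained probes, limma passed 7 at an unadjusted p under 0.05, all lower, and 2 did not overlap, against 4.79%. Limma called 0 of the 15 lens genes with a retained probe after adjustment, while the LPE test called 12 of them. Counted by single probe, the LPE test called 0.647% of all retained probes. The part of lens RNA in the values above was not tested.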

How the data were processed

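Retinal RNA was labelled with Cy3 and hybridized to Agilent SurePrint G3 arrays. Scanner files (Agilent Feature Extraction 11.0.1.1) were deposited for all arrays by the authors, in which the processed signal intensity is background-subtracted and detrended but not normalized between arrays, and a table of values. In that table, 100% of the values lay within 0.1% of the mean processed intensity of the probe, with outlier spots kept. The header names build mm9, so no coordinates of probes or genes are given, and the only coordinates printed are those of the promoter windows in GRCm38.p6. The gene table of that build served for names and matched 32994 probes (58.3%). Controls and spots marked as outliers were left out, log2 intensities were averaged per probe, and probes were retained if 1 genotype had at least 3 measured arrays, each of them well above background, and the other genotype at least 2 measured arrays. Quantile normalization followed, as in the methods. R 4.3.3 and limma 3.58.1 (lmFit, eBayes, genotype only) gave differences, 95% intervals and p-values with Benjamini-Hochberg adjustment across every retained probe. Calls needed a 1.5-fold change or more together with an adjusted p under 0.05. The LPE test was written for this work from its description, with the same adjustment and call. The precision is limited by 4 arrays per genotype. Probes of a gene were kept apart, a gene counted as called if any probe was, and the brightest probe represented a gene in medians. From the release machinery and paralog lists the genes with the 3 highest and 3 lowest representing probes are named. The rule did not cover the marker lists, and the marker genes named in the text were chosen after their values were seen. The scripts were tested on simulated data. Members, lists and tests were chosen with earlier results of these data known. Marker lists of ganglion cells, pigment epithelium, Muller glia and horizontal and amacrine cells were also read, and limma and the LPE test each called 0 genes in them, while limma at an unadjusted p under 0.05 passed 2 of 15, 0 of 15, 2 of 14 and 0 of 21 probes, all lower under the Mrp4-null label (2.94% of all retained probes). Differences were below 0 for 14, 3, 11 and 9 of these probes (53.2% of all retained probes), and the medians of the representing probes were -0.14, 0.19, -0.05 and 0.02. The alternatives were another shift, cyclic loess, normexp correction, other filters, outlier spots kept, the deposited table, the LPE test, an intensity trend with robust variances, a replicate block, each array left out and no fold limit.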

Additional observations from a re-analysis of the deposited data

Results flagged for a closer look

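Single arrays were screened for a value far from the others of their genotype in 32 groups of 4 arrays, those of the 15 ribbon synapse probes and of Abcc4. Of the 32 groups 1 was flagged, while chance flags about 1 in every 20 groups, and the groups share the same 8 arrays. For Pclo A_55_P2058143 the third wild-type array was at 7.83 and the nearest other wild-type array at 7.28, a gap of 0.852 of the whole range. That array was one of the 2 dimmest, and without it the log2 difference of this probe was 0.061 in place of -0.087.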

How the results depend on the processing

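The count of called ribbon synapse probes was 0 under every alternative run, as were the counts for the release machinery and paralog lists. Over 20 alternative fits the 15 log2 differences gave 300 values, of which 26 changed sign, none of them with an unadjusted p under 0.05 in its fit, and the smallest adjusted p was 0.516. The probes called among all retained probes numbered 202, and between 117 and 188 when single arrays were left out, with 131, 129 and 117 without wild-type arrays 2, 3 and 4. With the 2 dimmest arrays left out 128 were called, and with array signal as a covariate 234 (both chosen after seeing the data).

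Sample numbers are shared between the genotypes, and correlations of same-numbered deviations were -0.29, -0.685, 0.034 and 0.409. Not every sample correlated best with its own number, and the highest value, 0.707, was between the 2 dimmest arrays. Arrays can be alike for reasons other than pairing, so these values cannot decide if the numbers pair the samples. A replicate block gave 71 calls over all retained probes and changed no call of a ribbon synapse probe or list gene.

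With the dimmest arrays left out Rims2 A_55_P2733057 was at -0.00875. With the covariate the differences were 0.0016 for Pclo A_55_P2058143, -0.0054 for Cabp4 A_55_P2493994 and -0.0038 for Unc13b. Further from 0 with the covariate were Cplx4, at -0.164 in place of -0.077, and Rims2 A_55_P2733057, at 0.107 in place of 0.033. The same Cabp4 probe was at -0.025 after a shift to the 75th percentile and -0.0295 after normexp correction, and Cplx4 was at 0.0046 by the LPE test. Leaving out single arrays gave -0.497 to 0.0151 for Bsn A_51_P162718, -0.0107 to 0.0545 for Pclo A_55_P2014755, -0.254 to 0.0615 for Pclo A_55_P2058143, -0.29 to 0.0599 for Cacna1f, -0.0229 to 0.0562 for Cabp4 A_55_P2493994, -0.104 to 0.137 for Rims2 A_55_P2733057, -0.0833 to 0.0528 for Slc17a7, -0.0424 to 0.142 for Unc13b, -0.103 to 0.00819 for Cplx3 and -0.183 to 0.0945 for Cplx4. The other 5 probes kept their sign, with Rims2 A_52_P376016 at 0.0769 to 0.392, Ctbp2 at 0.00973 to 0.131, Pclo A_55_P2014750 at 0.0245 to 0.117, Bsn A_52_P442169 at 0.149 to 0.254 and Cabp4 A_52_P625321 at -0.0515 to -0.00125. The cause of the sign changes was not tested. The dim Bsn probe A_51_P162718 had the widest interval of the 15, with a standard error of 0.34, and of 0.174 with array signal as a covariate.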
